A study of Mus musculus with 24 samples.

Results

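The genes described here are 7 mouse genes known from the 2-cell embryo, namely Zscan4c, Zscan4d and Zscan4f of the Zscan4 cluster, Tcstv1 and Tcstv3, Tmem92, and Zfp352. They were taken by symbol from 30590 gene symbols in the day 1 to 4 libraries and by identifier from 43629 Ensembl identifiers in the mESC and diff_XEN libraries, and all 7 were listed in both. Polyadenylated RNA of E14 mouse embryonic stem cells (mESCs, 129/Ola) was sequenced from AGO2 knockout (KO) and wild-type (WT) cells. KO and WT cells were collected at days 1, 2, 3 and 4 of differentiation into extraembryonic endoderm (XEN), in medium that held activin A at 10 ng/mL, retinoic acid at 0.1 µM and serum at 15%, under a protocol that runs for 5 days. There were 2 libraries for each genotype and day, 16 in all. A further 6 libraries were re-used from earlier work, namely KO diff_XEN cells of clones C4 and 5-3, WT diff_XEN cells A and B, and undifferentiated WT mESCs of passages 33 and 42. The KO clone of days 1 to 4 was not named, and replicates were not said to be separate cultures. Each test therefore rests on the spread between the 2 libraries of a group, pooled over the groups of its fit, and this spread may be technical. Total counts ranged from 10601574 to 27147835 for days 1 to 4 and from 13941826 to 40139219 for the other libraries. Levels are given in CPM, counts relative to the scaled total of their library. They were scaled within the course and within the endpoint libraries and are not compared across these sets.

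Zscan4 genes encode nuclear proteins with a SCAN domain and zinc fingers that have been linked to telomere lengthening and genome stability in mouse stem cells. They are transcribed in a burst at the 2-cell stage and again, transiently, in a small minority of cells of an mESC culture, together with other genes of the same embryonic programme. Retinoic acid has been reported to enlarge that minority. Tcstv1 and Tcstv3 belong to a mouse family of small proteins named for variable transcription in 2-cell embryos, Tmem92 encodes a predicted membrane protein used as a marker of the same state, and Zfp352 encodes a zinc finger protein of the early embryo. AGO2 is the Argonaute protein that carries small RNAs and can cut their targets. In bulk RNA, fewer positive cells and less RNA per positive cell cannot be told apart.

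The Zscan4 copies share most of their sequence, from the promoter onwards, and the promoter stretches of 4 of the 7 genes are printed because the Zscan4 genes moved together and because their likeness limits how far the counts separate them. The sequences are from RefSeq (GRCm38.p6) and run 5′ to 3′ from 250 bases before to 50 bases after the annotated start, on the strand of the gene. Zscan4c lies at chr7:11005495-11005794 on the plus strand, Zscan4d at chr7:11166099-11166398 on the minus strand, Zscan4f at chr7:11397665-11397964 on the plus strand and Zfp352 at chr4:90218570-90218869 on the plus strand. In the Zscan4 promoters capitals mark TGATTCAA and TATAAA, and in that of Zfp352 they mark the repeated unit GGACAACACAC.
Zscan4c: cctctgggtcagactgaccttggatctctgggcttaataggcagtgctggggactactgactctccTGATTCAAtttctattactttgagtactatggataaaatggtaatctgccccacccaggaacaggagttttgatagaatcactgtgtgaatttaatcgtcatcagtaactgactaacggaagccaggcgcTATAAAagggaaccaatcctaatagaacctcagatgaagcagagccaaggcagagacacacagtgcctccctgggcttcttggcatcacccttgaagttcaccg
Zscan4d: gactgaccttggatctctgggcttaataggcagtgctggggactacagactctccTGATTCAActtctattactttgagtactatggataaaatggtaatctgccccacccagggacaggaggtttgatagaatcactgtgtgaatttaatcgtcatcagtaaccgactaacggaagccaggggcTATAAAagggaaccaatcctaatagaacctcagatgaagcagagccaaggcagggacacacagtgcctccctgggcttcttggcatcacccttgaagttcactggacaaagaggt
Zscan4f: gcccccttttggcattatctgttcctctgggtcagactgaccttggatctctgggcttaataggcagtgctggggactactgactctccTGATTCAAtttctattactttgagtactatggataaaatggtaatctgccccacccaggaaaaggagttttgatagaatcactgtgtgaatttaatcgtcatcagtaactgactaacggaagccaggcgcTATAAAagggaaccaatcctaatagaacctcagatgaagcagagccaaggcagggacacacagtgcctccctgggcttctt
Zfp352: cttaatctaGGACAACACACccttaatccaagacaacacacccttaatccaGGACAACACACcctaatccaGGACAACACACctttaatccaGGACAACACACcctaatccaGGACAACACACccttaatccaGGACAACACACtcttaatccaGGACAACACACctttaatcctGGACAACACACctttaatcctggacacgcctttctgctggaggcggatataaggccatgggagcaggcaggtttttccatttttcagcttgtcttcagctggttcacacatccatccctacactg
TATAAA, the core of a TATA box, stood at position -54 from the annotated start in Zscan4c, at -65 in Zscan4d and at -31 in Zscan4f, and on either strand it was present in 13.6% of 32851 RefSeq promoters of the same length. TGATTCAA, the first 8 letters of the motif reported for the transcription factor DUX, stood at -184, -195 and -161 in the same genes and in 0.581% of all promoters. It was searched on both strands after the sequences had been read. The full motif, in which TCA follows directly, was in none of the 4 promoters and in 0.00913% of all. The letters TGCACAC, reported as a ZSCAN4 binding motif, were likewise in none of the 4 and in 4.4% of all promoters. GGACAACACAC, a unit picked after reading the sequence, occurred 8 times in the Zfp352 promoter and in 1 of the 32851 promoters. None of these matches shows binding.

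In GRCm38 the gene bodies of Zscan4c (chr7:11005745-11010547), Zscan4d (chr7:11161374-11166159) and Zscan4f (chr7:11397915-11402318) lay within 396.6 kb of chromosome 7. Tcstv1 (chr13:119893388-119894785) and Tcstv3 (chr13:120316878-120318178) lay within 424.8 kb of chromosome 13, while Tmem92 (chr11:94777217-94782703) and Zfp352 (chr4:90218820-90225702) stood alone. The promoter of Zscan4c was 99.3% identical to that of Zscan4f and 97.2% to that of Zscan4d, over the aligned columns. The longest transcripts of Zscan4c and Zscan4d were 97.1% identical over the aligned columns, gaps included, whereas Zscan4f, with a shorter transcript, was 78.3% identical to Zscan4c and 76.9% to Zscan4d, and those of Tcstv1 and Tcstv3 were 53.1% identical. Of all 50-base windows in the exons of Zscan4c, 85.5% also occurred in another gene, against 49.6% for Zscan4d and 86.8% for Zscan4f. The share was 15.0% for Tcstv1, 31.4% for Tcstv3, 1.93% for Tmem92 and 7.09% for Zfp352. How reads with several matches were counted is not given in the sources used here, so the single Zscan4 values may contain shared reads, and their sum is given beside them.

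Ago2 itself, which checks the genotype labels, stood in each KO library below both WT libraries of its day, with 43.4 and 33.8 CPM in KO and 332 and 414 CPM in WT at day 1. The gap was widest at day 1, with KO over WT ratios of means of 0.103 at day 1, 0.298 at day 2, 0.404 at day 3 and 0.234 at day 4, and Ago2 in KO was 3.33-fold higher at day 4 than at day 1. The sum of 7 mESC markers, which include Pou5f1 and Nanog, was 2596 and 2664 CPM in KO against 2322 and 1937 CPM in WT at day 1, 1074 and 703 CPM in KO against 1299 and 1113 CPM in WT at day 2, 791 and 213 CPM in KO against 452 and 1050 CPM in WT at day 3, and 93.1 and 198 CPM in KO against 227 and 412 CPM in WT at day 4. It was thus above WT in both KO libraries at day 1 and below WT in both at days 2 and 4, as the members mostly were, and all 7 markers were at 1 CPM or more in each of the 16 libraries. By edgeR none of the 7 was called between KO and WT at any of the 4 days, where 1.63% to 13.6% of all genes were. At day 1 none of the 7 had an unadjusted p below 0.05. The sum of 8 XEN markers, which include Gata4 and Sox17, was lower in KO at every day, with 193 and 161 CPM in KO against 315 and 350 CPM in WT at day 1, and 1684 and 1351 CPM in KO against 5804 and 5163 CPM in WT at day 4. Oocytes also transcribe some 2-cell genes, so 6 germ cell and oocyte markers were followed. Between 3 and 5 of them were at 1 CPM or more in each library, the oocyte genes Gdf9 and Nobox stayed at or below 1.39 CPM in all 16, and the oocyte gene Zp3 had 6.61 and 7.83 CPM in KO against 3.37 and 3.87 CPM in WT at day 1, higher in KO like the members. The sum of the 6 was 139 and 123 CPM in KO against 184 and 142 CPM in WT at day 1. Of the 6, 2 had a positive log2 fold change of KO over WT at day 1 (median -0.41). None was called higher and 2 were called lower, where 13.6% of all genes were called. The part of these markers in the differences below was not tested.

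At day 1 the KO cells held more RNA of the 2-cell-like genes than WT cells did, and 6 of the 7 genes passed the test. Zscan4d had 36.8 and 47.2 CPM in KO against 9.45 and 17.9 CPM in WT, and Zscan4c had 39.7 and 49.9 CPM in KO against 13.3 and 19.4 CPM in WT. Zscan4f had 28.9 and 21.0 CPM in KO against 9.98 and 16.1 CPM in WT. For all 3 copies both KO libraries stood above both WT libraries. Summed over the 3 copies, KO libraries held 105 and 118 CPM against 32.7 and 53.3 CPM in WT, a ratio of group means of 2.60.

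The genes outside the Zscan4 cluster had the same order of groups. Tcstv3 had 2.78 and 5.16 CPM in KO against 0.361 and 0.673 CPM in WT, a ratio of means of 7.68. Tmem92 had 13.96 and 22.6 CPM in KO against 5.93 and 7.61 CPM in WT, and Zfp352 had 1.59 and 1.47 CPM in KO against 0.441 and 0.673 CPM in WT. KO and WT did not overlap for any of these genes. Tcstv1 was barely detected, with 1 and 8 counts in KO against 1 and 0 counts in WT, and did not pass the expression filter of the test.

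Under the quasi-likelihood test of edgeR, 13.6% of the 17694 genes tested were called between KO and WT at day 1 (Benjamini-Hochberg adjusted p below 0.05), and 6.89% were called higher in KO. All 6 tested members were called higher. The log2 fold change was 1.62 ± 0.25 for Zscan4d (SE, adjusted p = 0.00431), 1.45 ± 0.23 for Zscan4c (adjusted p = 0.00422) and 0.94 ± 0.24 for Zscan4f (adjusted p = 0.0281). It was 2.93 ± 0.47 for Tcstv3 (adjusted p = 0.00457), 1.43 ± 0.43 for Tmem92 (adjusted p = 0.0463) and 1.45 ± 0.45 for Zfp352 (adjusted p = 0.0466). The direction held without any 1 library, but the number of members called was 4 without KO replicate 1, 0 without KO replicate 2 (where 45 of all genes were called) and 3 without either WT library.

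**Figure D1:**
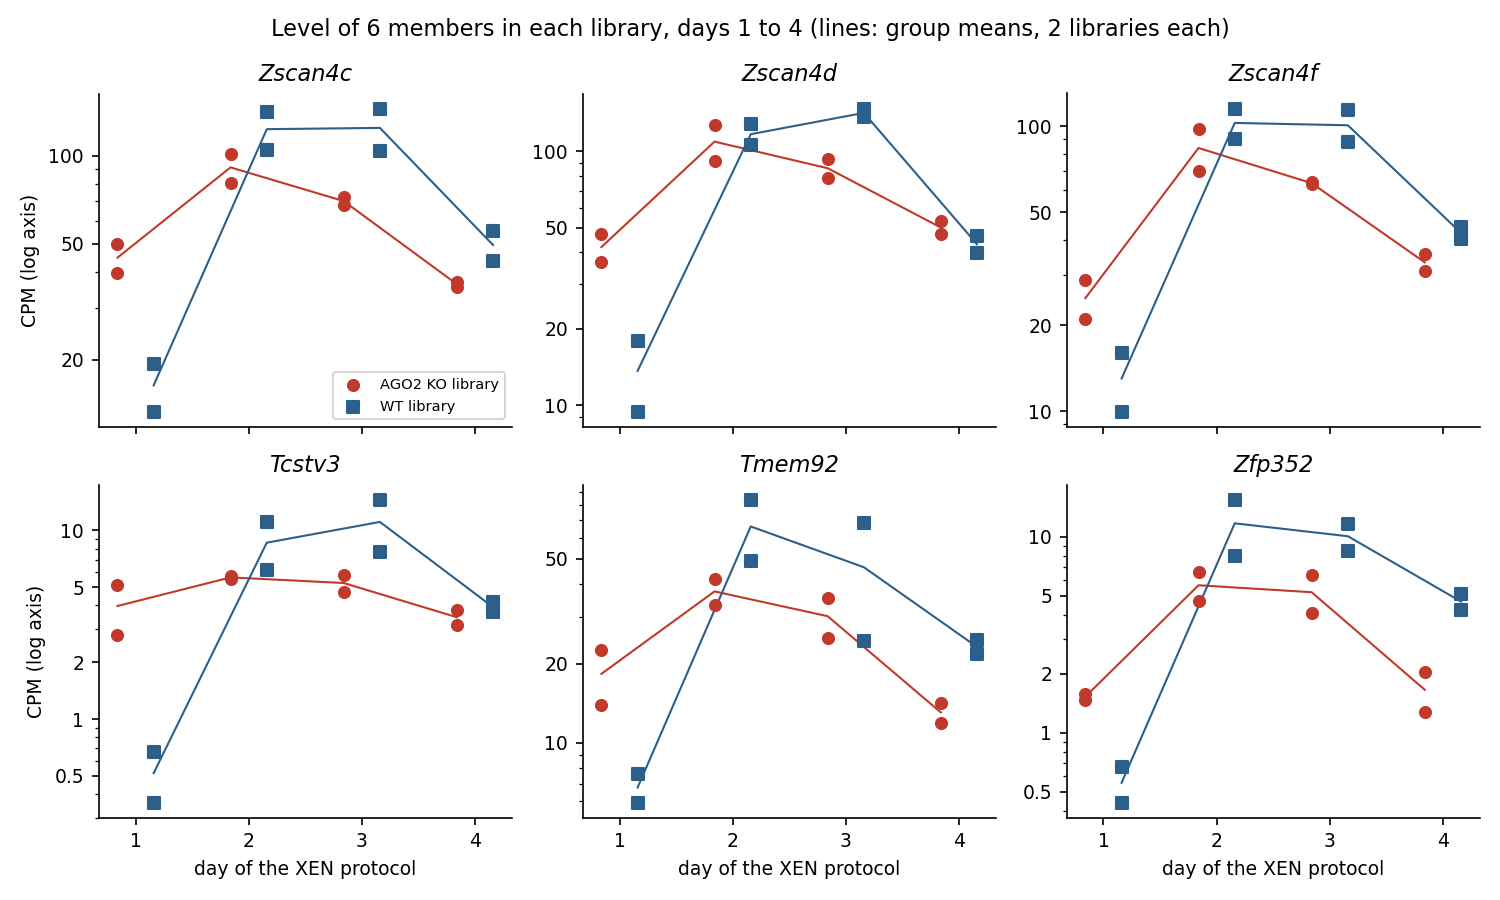
CPM on a log axis of 6 of the 7 genes in each library at days 1 to 4, with KO as circles to the left of WT as squares and lines through the group means. The KO libraries lie above the WT libraries at day 1 in each panel, and at days 2 and 3 they lie below them or overlap with them.

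In both genotypes the means of the 6 tested members were higher at days 2 and 3 than at day 1, and the day 1 libraries lay below those of days 2 and 3 except for Tcstv3 in KO, where days 1 and 3 overlapped. Tcstv1 had 5 and 5 counts in KO at day 2 and 3 and 0 counts at day 3, against 1 and 8 at day 1. Day 3 was not tested against day 1. Summed Zscan4 in the KO libraries stood at 105 and 118 CPM on day 1, at 242 and 327 CPM on day 2, at 214 and 224 CPM on day 3 and at 114 and 126 CPM on day 4. Summed Zscan4 in the WT libraries stood at 32.7 and 53.3 CPM on day 1, at 301 and 385 CPM on day 2, at 406 and 328 CPM on day 3 and at 124 and 146 CPM on day 4. The KO libraries of day 4 overlapped with those of day 1, whereas both WT libraries of day 4 were above those of day 1.

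The comparisons of day 2 with day 1 and of day 4 with day 2 were chosen after the counts had been seen, because day 2 held high levels. In KO 43.0% of all genes were called between day 2 and day 1, and 4 of the 6 members rose. Zscan4f rose by 1.75 ± 0.24 (edgeR, adjusted p = 0.000136), Zscan4d by 1.38 ± 0.25 (adjusted p = 0.000751), Zscan4c by 1.03 ± 0.22 (adjusted p = 0.00235) and Zfp352 by 1.88 ± 0.38 (adjusted p = 0.00158). Tmem92 (1.04 ± 0.41, adjusted p = 0.0573) and Tcstv3 (0.51 ± 0.38, adjusted p = 0.288) did not pass. As ratios of group means the changes in KO ran from 1.42-fold for Tcstv3 to 3.7-fold for Zfp352.

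In WT 21.3% of all genes were called between day 2 and day 1, and all 6 tested members rose. Zfp352 rose by a log2 fold change of 4.38 ± 0.43 (edgeR, adjusted p = 2.62e-05), Tcstv3 by 4.05 ± 0.46 (adjusted p = 7.03e-05) and Tmem92 by 3.29 ± 0.45 (adjusted p = 0.000407). The Zscan4 copies rose by 2.92 ± 0.24 for Zscan4c, 3.10 ± 0.26 for Zscan4d and 2.98 ± 0.25 for Zscan4f, with an adjusted p of at most 1.57e-05. As ratios of group means these changes ran from 7.55-fold for Zscan4c to 21.0-fold for Zfp352.

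The difference between the genotypes in this change was tested directly, and 0.119% of all genes, 21 in number, passed. Of the 6 members 2 passed, Tcstv3 at -3.54 ± 0.60 (edgeR, adjusted p = 0.0448) and Zscan4c at -1.89 ± 0.31 (adjusted p = 0.0445), so that both gained less in KO. The estimates of the others were -2.50 ± 0.57 for Zfp352 (adjusted p = 0.103), -2.25 ± 0.59 for Tmem92 (adjusted p = 0.113), -1.72 ± 0.35 for Zscan4d (adjusted p = 0.0721) and -1.23 ± 0.33 for Zscan4f (adjusted p = 0.113). DESeq2 called all 6 and 4.66% of all genes in this comparison. No member, and no gene of all those tested, passed when KO day 1 replicate 2, either KO library of day 2, either WT library of day 1 or WT day 2 replicate 2 was left out, and 5 members passed without KO day 1 replicate 1, where 12.4% of all genes did.

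At day 2 the means of the 6 tested members were lower in KO than in WT. The KO over WT ratios of means ran from 0.483 for Zfp352 to 0.935 for Zscan4d. Zscan4c had 80.9 and 102 CPM in KO against 105 and 142 CPM in WT, and Zscan4d had 91.6 and 127 CPM in KO against 106 and 128 CPM in WT. Zscan4f had 70.0 and 98.1 CPM in KO against 90.3 and 116 CPM in WT. KO and WT overlapped for Zscan4d and Zscan4f, and both KO libraries were just below WT for Zscan4c. Tcstv3 had 5.53 and 5.73 CPM in KO against 6.14 and 11.1 CPM in WT, Tmem92 had 33.4 and 41.7 CPM in KO against 48.9 and 83.7 CPM in WT, and Zfp352 had 4.70 and 6.61 CPM in KO against 7.98 and 15.4 CPM in WT. For these 3 genes both KO libraries were below both WT libraries.

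None of the 6 tested members was called at day 2, where edgeR called 1.63% of all genes. DESeq2 called 0 of the 6 as well, and 1 had an unadjusted p below 0.05, Zfp352, at a log2 fold change of -1.05 ± 0.34 (adjusted p = 0.156). The other estimates ran from -0.82 ± 0.40 for Tmem92 (adjusted p = 0.4) to -0.10 ± 0.24 for Zscan4d (adjusted p = 0.904). These intervals do not show that the genotypes were alike.

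The replicates of day 3 agreed least of the 4 days, with a Spearman's rho across genes of 0.984 in KO and 0.974 in WT, against 0.988 to 0.994 in the groups of the other days, and their mESC marker sums lay far apart. At day 3 the tested members other than Tmem92 were lower in both KO libraries than in both WT libraries. The share of all genes with such an order was not counted at this or the other days. Tcstv1 had only 3 counts over the KO libraries against 6 counts over the WT libraries (95% interval of the ratio 0.0558 to 1.615). Zscan4c had 72.2 and 67.8 CPM in KO against 145 and 104 CPM in WT, Zscan4d had 78.3 and 93.2 CPM in KO against 147 and 136 CPM in WT, and Zscan4f had 63.8 and 62.6 CPM in KO against 114 and 88.2 CPM in WT. Tcstv3 had 4.70 and 5.82 CPM in KO against 14.5 and 7.65 CPM in WT, and Zfp352 had 6.35 and 4.07 CPM in KO against 11.6 and 8.47 CPM in WT. Tmem92 had 35.5 and 25.01 CPM in KO and 68.6 and 24.3 CPM in WT, so that the groups overlapped. Zscan4c alone was called, at -0.83 ± 0.22 (edgeR, adjusted p = 0.0435), where 4.83% of all genes were called. Zscan4d (-0.73 ± 0.24, adjusted p = 0.106), Zscan4f (-0.67 ± 0.23, adjusted p = 0.116), Zfp352 (-0.91 ± 0.35, adjusted p = 0.161) and Tcstv3 (-1.08 ± 0.38, adjusted p = 0.125) had unadjusted p below 0.05 and did not pass. The Zscan4c call was lost without any 1 of the 4 libraries (-1.02 to -0.57), also without WT replicate 1, where the number of all genes called was 2643 against 854 with it.

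At day 4 Zfp352 was called lower in KO, with 1.28 and 2.04 CPM in KO against 5.12 and 4.22 CPM in WT. Its log2 fold change was -1.47 ± 0.40 (edgeR, adjusted p = 0.0414), where 7.04% of all genes were called. Zscan4c had 35.7 and 36.99 CPM in KO against 43.7 and 55.3 CPM in WT, and Zscan4f had 31.1 and 35.6 CPM in KO against 40.1 and 44.5 CPM in WT. Zscan4d, with 47.2 and 53.0 CPM in KO against 39.6 and 46.5 CPM in WT, was the 1 member that stood above WT in both KO libraries. Tmem92 had 11.9 and 14.2 CPM in KO against 21.7 and 24.6 CPM in WT, and Tcstv3 had 3.15 and 3.77 CPM in KO against 3.68 and 4.15 CPM in WT. None of these 5 passed, with estimates from -0.83 ± 0.43 for Tmem92 (adjusted p = 0.309) to 0.22 ± 0.25 for Zscan4d (adjusted p = 0.679). The Zfp352 call was lost without any 1 of the 4 libraries (-1.84 to -1.16).

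**Figure D2:**
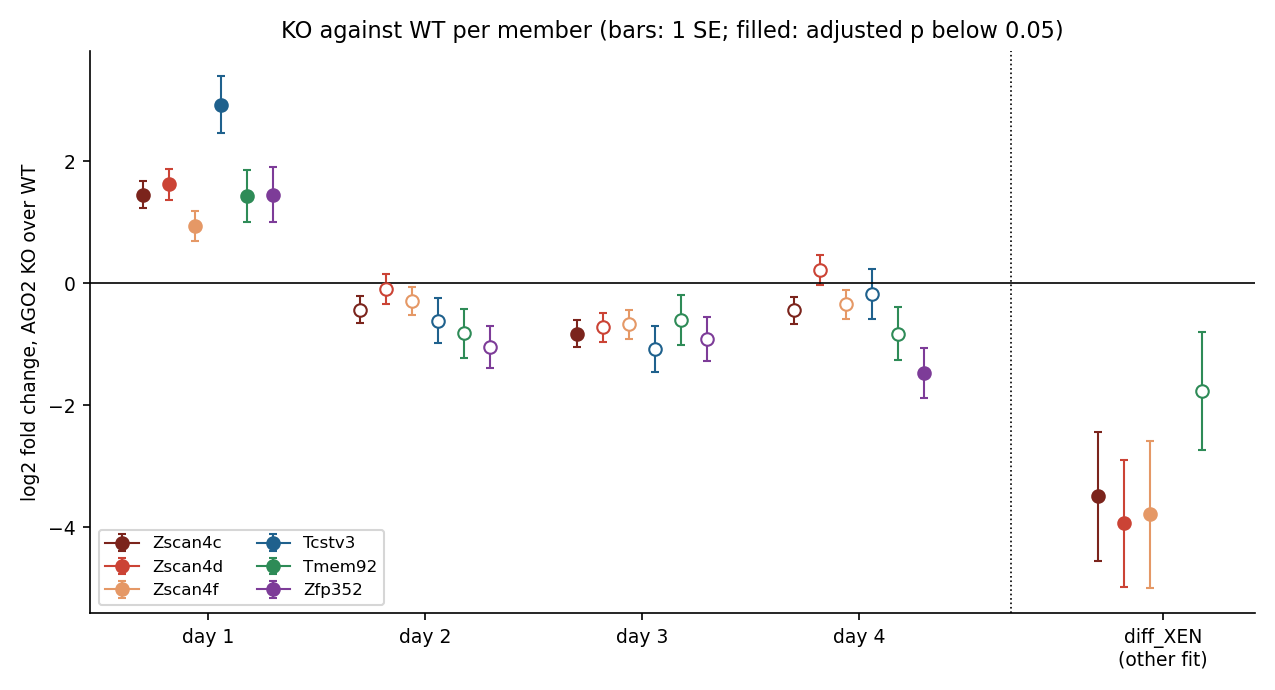
Log2 fold change of KO over WT with 1 SE on either side for 6 members at days 1 to 4 and, from a separate fit, in diff_XEN cells, with filled points for an adjusted p below 0.05. All 6 are filled above 0 at day 1, none at day 2, Zscan4c below 0 at day 3 and Zfp352 below 0 at day 4.

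From day 2 to day 4, a comparison chosen because day 2 held high levels, the members fell in both genotypes. In KO 5 of the 6 fell, where 36.4% of all genes were called, with values between -1.12 ± 0.24 for Zscan4d (edgeR, adjusted p = 0.00303) and -1.75 ± 0.39 for Zfp352 (adjusted p = 0.00342), and Tcstv3 did not pass (-0.70 ± 0.39, adjusted p = 0.177). In WT all 6 fell, where 32.2% were called, with values between -1.13 ± 0.39 for Tcstv3 (adjusted p = 0.0391) and -1.52 ± 0.42 for Tmem92 (adjusted p = 0.0157). Without WT day 2 replicate 2 or either WT library of day 4, 3 were called in WT, where 13.8% to 21.8% of all genes were. The difference between the genotypes was called for none of the 6 by edgeR or DESeq2, with 0 at an unadjusted p below 0.05, where 0.819% of all genes were called. Its estimates lay between -0.42 ± 0.53 for Zfp352 and 0.44 ± 0.55 for Tcstv3.

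Between day 4 and day 1 the members rose in WT, and none was called in KO. In KO edgeR and DESeq2 each called 0 of 6, with 0 at an unadjusted p below 0.05, where edgeR called 66.3% of all genes. The KO estimates lay between -0.48 ± 0.42 for Tmem92 and 0.42 ± 0.24 for Zscan4f. In WT all 6 were higher at day 4, by 1.60 ± 0.23 for Zscan4c to 3.05 ± 0.44 for Zfp352 (edgeR, adjusted p of at most 0.00504), where 48.5% of all genes were called. The change from day 1 to day 4 was lower in KO for all 6 members, where 6.42% of all genes were called. The difference was -3.10 ± 0.62 for Tcstv3 (adjusted p = 0.0136), -2.92 ± 0.60 for Zfp352 (adjusted p = 0.0155), -2.26 ± 0.61 for Tmem92 (adjusted p = 0.0469), -1.90 ± 0.32 for Zscan4c (adjusted p = 0.00484), -1.40 ± 0.35 for Zscan4d (adjusted p = 0.0342) and -1.28 ± 0.34 for Zscan4f (adjusted p = 0.0403). These contrasts share the day 1 libraries with the comparison at day 1. Zscan4c was called without each library in turn, whereas the number called was 1 without KO day 1 replicate 2, KO day 4 replicate 1 or WT day 1 replicate 1. It was 2 when WT day 4 replicate 1 was left out, and 3 when the second library of day 4 of either genotype was. In these settings 1.31% to 2.7% of all genes were called.

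Averaged over the 4 days, the genotypes did not differ past the threshold for any member, where 17.5% of all genes were called. By edgeR and by DESeq2 0 of 6 were called, and 1, Zfp352 at -0.50 ± 0.20 (adjusted p = 0.0998), had an unadjusted p below 0.05. The sum of the 3 Zscan4 copies had KO over WT ratios of means of 2.60 at day 1, 0.829 at day 2, 0.596 at day 3 and 0.888 at day 4.

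Per kilobase of exon the Zscan4 copies were the highest of the members at day 2. In KO the mean was 48.1 CPM per kb for Zscan4d, 42.9 for Zscan4f, 40.1 for Zscan4c, 17.2 for Tmem92, 7.23 for Tcstv3, 2.49 for Zfp352 and 0.146 for Tcstv1. In WT it was 54.2 CPM per kb for Zscan4c, 52.5 for Zscan4f, 51.4 for Zscan4d, 30.3 for Tmem92, 11.04 for Tcstv3, 5.14 for Zfp352 and 0.127 for Tcstv1. The libraries of the 3 copies overlapped with each other, and in WT those of Tmem92, Tcstv3 and Zfp352 did not overlap with their neighbours in this order. Tcstv1 had at most 8 counts in any library of the course.

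**Figure D3:**
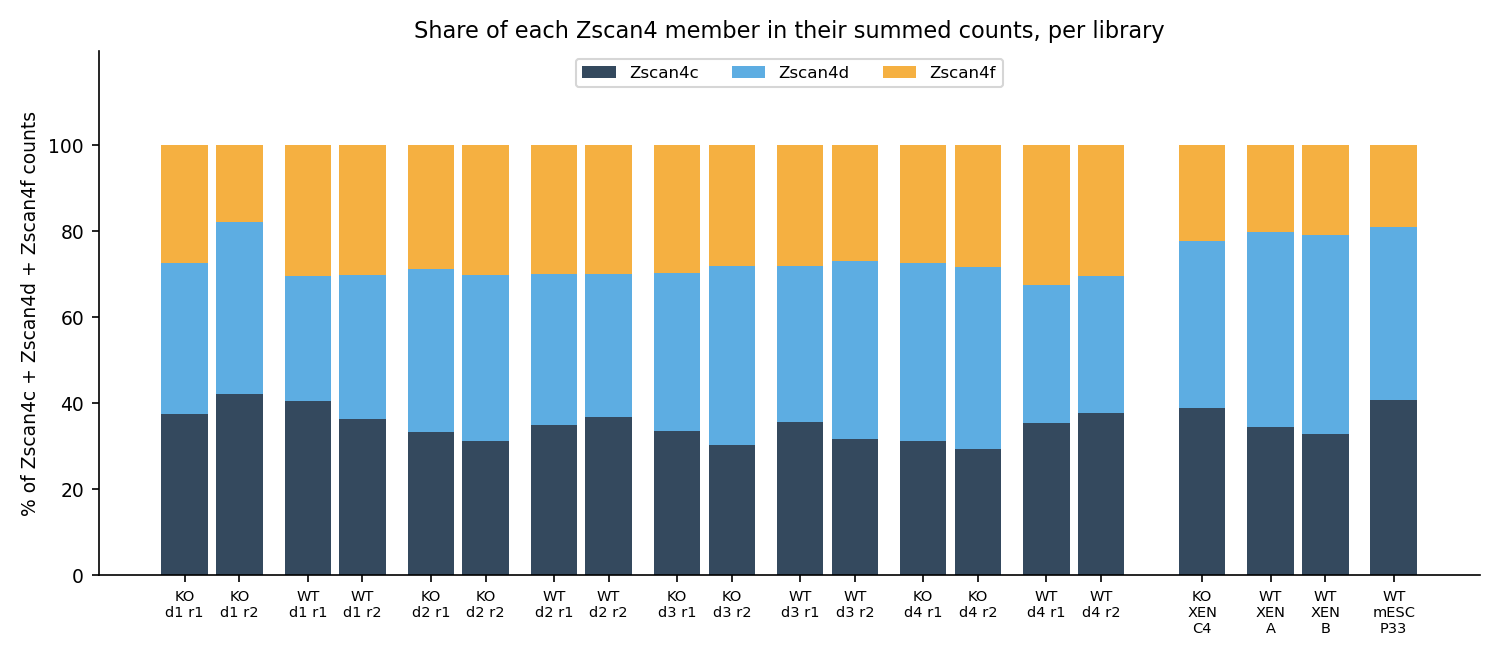
Share in percent of the summed Zscan4c, Zscan4d and Zscan4f counts that each copy took, by library, for the 16 course libraries and for the endpoint libraries with more than 11 such counts. Zscan4f took 17.8% in the second KO library of day 1 and 26.8% to 32.5% in the other course libraries.

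Each Zscan4 copy took a sizeable share of the Zscan4 signal in every course library. Zscan4c took 29.5% to 42.3% of the 3-copy sum over the course, Zscan4d 28.9% to 42.2% and Zscan4f 17.8% to 32.5%. At day 4 the Zscan4d share was 41.4% and 42.2% in KO against 32.1% and 31.8% in WT, and the Zscan4c share was 31.3% and 29.5% in KO against 35.4% and 37.8% in WT. The groups did not overlap in either share at day 4, and the shares were not tested. Across the 16 libraries the log2 CPM of the 6 members correlated with Pearson's r of 0.885 to 0.970 over 15 pairs (median 0.946), a description of libraries that share the course and the depth of sequencing.

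The other genes of the 2-cell-like programme were followed through a list of 56, of which 47 were in the files and 37 were tested in the course. At day 1, 13 were higher and 1 lower in KO, where 6.89% of all genes were called higher and 6.71% lower. The median log2 fold change was 0.81 against -0.02 over all genes. Among those called were Tdpoz3 (2.49 ± 0.59) and Tdpoz4 (1.87 ± 0.36), which encode proteins with TRAF-like and POZ domains, AF067061 (2.31 ± 0.48), Gm4340 (2.02 ± 0.42) and Gm20767 (1.96 ± 0.30). Obox6, an oocyte homeobox gene, was the 1 called lower (-1.87 ± 0.48, edgeR, adjusted p = 0.0278). At day 2 none was higher and 4 were lower in KO (median -0.998), where 0.853% of all genes were called lower. At day 3 none was higher and 12 were lower (median -1.08), where 3.0% of all genes were called lower. At day 4 none was higher and 8 were lower (median -0.85), where 5.05% of all genes were called lower.

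The 4 genes lower in KO at day 2 were Usp17la (-1.81 ± 0.27, edgeR, adjusted p = 0.00319) and Usp17le (-1.66 ± 0.29, adjusted p = 0.0094), which encode deubiquitinating enzymes, Pramef25 of the PRAME family (-1.38 ± 0.29, adjusted p = 0.0264) and B020004J07Rik (-1.26 ± 0.29, adjusted p = 0.0438). The lowest at day 3 included Gm4027 (-2.21 ± 0.33), the transporter gene Abcb5 (-2.05 ± 0.51), Gm2016 (-1.82 ± 0.25) and Usp17lb (-1.69 ± 0.36), and at day 4 they included Gm2016 (-1.98 ± 0.27) and Tdpoz4 (-1.51 ± 0.33). Between day 2 and day 1, 21 of the 37 rose in KO (median 1.09), where 22.9% of all genes were called higher. In WT 35 rose (median 2.99), where 12.6% of all genes were called higher. The change was called lower in KO for 5 of the 37 and for 0.0791% of all genes. Many genes of this list belong to families of near-identical copies, so their counts may share reads.

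**Figure D4:**
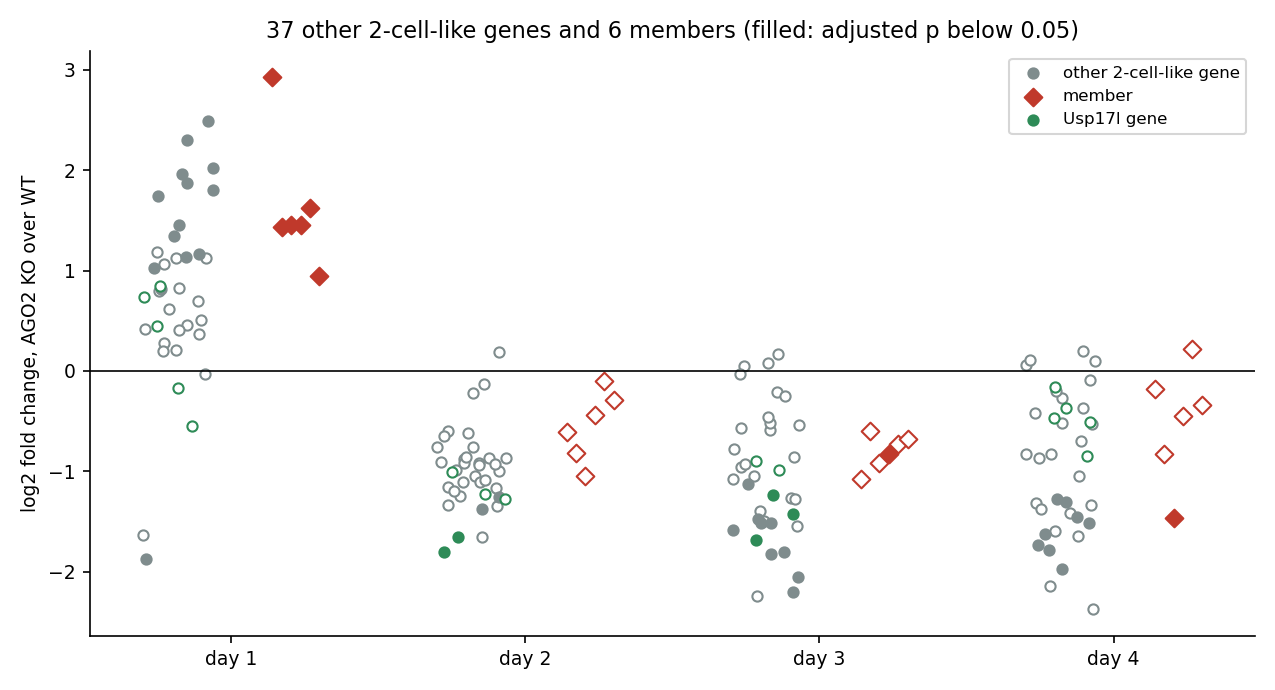
Log2 fold change of KO over WT at days 1 to 4 for the 37 other 2-cell-like genes tested (points, with the Usp17l genes in green) and for 6 members (diamonds). The median of the other genes is 0.81 at day 1, -0.998 at day 2, -1.08 at day 3 and -0.85 at day 4.

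Regulators reported for this state were followed as a pair of lists. Of 8 reported to promote it, 1 was higher and 1 lower in KO at day 1, where 13.6% of all genes were called. Dppa3, a maternal chromatin factor, had 20.3 and 23.5 CPM in KO against 7.05 and 3.62 CPM in WT (2.04 ± 0.61, edgeR, adjusted p = 0.0445). Tbx3, a T-box factor, had 120 and 91.9 CPM in KO against 239 and 181 CPM in WT (-0.99 ± 0.26, adjusted p = 0.0297), and it was lower in KO at day 2 (-1.36 ± 0.26) and day 3 (-1.33 ± 0.26) too. Dppa2 and Dppa4, which act upstream of the DUX gene in mESCs, were not called between KO and WT at any of the 4 days. Of 23 regulators reported to restrain the state, 1 was higher at day 1, Trim28 (0.55 ± 0.17, adjusted p = 0.0453), a co-repressor, and 1 was lower, Mga (-0.89 ± 0.27, adjusted p = 0.0434). None of them was called at day 2, 1 was higher at day 3 (Lin28a, 1.04 ± 0.24) and 1 lower at day 4 (L1td1, -1.92 ± 0.29). At day 2, 1 of the 23 had an unadjusted p below 0.05. In diff_XEN cells, where 47.0% of all genes were called, 4 of the 7 promoting regulators tested were lower in KO and none higher, and of the 23 restraining ones 13 were lower and 2 higher. They included L1td1 (-5.78 ± 0.71, adjusted p = 0.00371), Lin28a, an RNA-binding protein gene (-4.23 ± 0.50, adjusted p = 0.00346), and Rif1, a telomere and replication factor gene (-2.83 ± 0.25, adjusted p = 0.00246).

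Duxf3, a copy of the gene for the transcription factor DUX, was chosen for mention after its values had been seen. It had 1.08 and 1.11 CPM in KO against 0.721 and 1.18 CPM in WT at day 1, and 1.83 and 2.37 CPM in KO against 2.93 and 3.66 CPM in WT at day 2. The groups overlapped at day 1, and neither difference was called by edgeR (adjusted p = 0.787 at day 1 and 0.512 at day 2). Between day 2 and day 1 it was not called in KO (0.94, adjusted p = 0.0902) and rose in WT (1.79, adjusted p = 0.00928).

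The genes whose pattern was most like that of summed Zscan4 over the 16 libraries included other 2-cell genes. Among 14764 genes with at least 1 CPM on average, and leaving out the members and 3 predicted genes outside the lists, the 10 with the highest Pearson correlation of log2 CPM ran from Gm20767 (r = 0.964) to Zscan4b (r = 0.940). Among those between them were Gm21761, Inpp4b, a phosphoinositide phosphatase gene, Gm4340, Arg2, Zscan4e, Spz1 and Tacr3. Of these 10 genes 7 were in the lists followed here, as were 13 of the first 40 with predicted genes kept, and Zscan4b and Zscan4e may share reads with the sum. Of the 10, 1 was among the first 40 within the KO libraries and 6 within the WT libraries. The lowest of their r was 0.828 within the 8 KO libraries and 0.962 within the 8 WT libraries, which share the course, and r is given as a description.

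In diff_XEN cells the KO libraries held fewer Zscan4 reads than the WT libraries. Zscan4d had 0.479 CPM (7 counts) in KO clone C4 and 0.0289 CPM (1 count) in KO clone 5-3, against 4.03 CPM (149 counts) in WT A and 2.19 CPM (80 counts) in WT B. Zscan4c had 0.479 CPM in clone C4 and 0.0289 CPM in clone 5-3, against 3.06 CPM in WT A and 1.56 CPM in WT B. Zscan4f had 0.273 CPM in clone C4 and 0 counts in clone 5-3, against 1.79 CPM in WT A and 0.984 CPM in WT B. Both KO clones were below both WT libraries for each copy, and the 3-copy sum was 20 counts over the KO libraries against 501 counts over the WT libraries.

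Where 47.0% of 16671 genes were called, 3 of the 4 tested members were called lower in KO. These were the Zscan4 copies, which passed the expression filter through the WT libraries. With KO counts this low they could be tested only because WT was higher. The direction of these calls is therefore no independent support for the difference. The log2 fold change was -3.94 ± 1.04 for Zscan4d (edgeR, adjusted p = 0.0281), -3.50 ± 1.06 for Zscan4c (adjusted p = 0.0429) and -3.79 ± 1.20 for Zscan4f (adjusted p = 0.048). Tmem92 had 0.615 and 0.0868 CPM in KO clones C4 and 5-3 against 1.46 and 0.601 CPM in WT A and B, so that the groups overlapped (-1.77 ± 0.97, adjusted p = 0.184). Tcstv3 had 0 counts in both KO clones against 12 and 3 counts in WT. If 3 counts over the KO group are taken as the floor, Tcstv3 would be 3.35-fold lower in KO. The exact 95% interval of its ratio of counts reached up to 0.417. Zfp352 had 0 and 2 counts in KO against 11 and 4 counts in WT, a ratio of counts of 0.199 (95% interval 0.0221 to 0.857), and Tcstv1 had no counts in any of the 6 endpoint libraries. No member was called without WT A, WT B or clone 5-3, and 3 were called without clone C4, where 24.1% to 40.4% of all genes were called.

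Other markers also separated the diff_XEN groups. The sum of the 8 XEN markers was 2353 and 2950 CPM in KO against 19060 and 29500 CPM in WT, that of 7 mESC markers 54.4 and 48.9 CPM in KO against 282 and 265 CPM in WT, and that of 6 mesenchyme markers 2319 and 3704 CPM in KO against 709 and 311 CPM in WT. Of the 6 mesenchyme markers 3 were called higher and 2 lower in KO, where 22.1% and 24.9% of all genes were. Col1a2, for one, had 26.86 and 33.88 CPM in KO against 209.6 and 57.25 CPM in WT. The germ cell and oocyte sum was 16.3 and 16.9 CPM in KO against 82.5 and 61.4 CPM in WT, with 3 of 6 markers at 1 CPM or more in each KO library and 4 in each WT library and Nobox at 0 counts in both KO clones. The oocyte gene Gdf9 had 0.342 and 0.666 CPM in KO against 6.14 and 7.85 CPM in WT. Their part in the result was not tested. Ago2 stood at 115 CPM in clone C4 and 9.35 CPM in clone 5-3, against 389 and 427 CPM in WT. Of 20 other 2-cell-like genes tested there, 2 were higher and 9 lower in KO (median -2.73), where 22.1% of all genes were called higher and 24.9% lower. They were led by Gm4027 (-7.51 ± 1.65), Abcb5 (-6.82 ± 1.35) and Gm8300 (-6.36 ± 1.23) and, among the higher ones, Sp110 (4.42 ± 0.72). Gm4027 and Abcb5 had 0 CPM in both KO clones, and Gm8300 had 0.0684 CPM in clone C4 and 0 CPM in clone 5-3. They could be tested only through the WT libraries, as could others of this list near 0 in KO, such as Gm2016 and Gm5662. The number of genes called lower and the median are therefore no independent support for a difference.

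**Figure D5:**
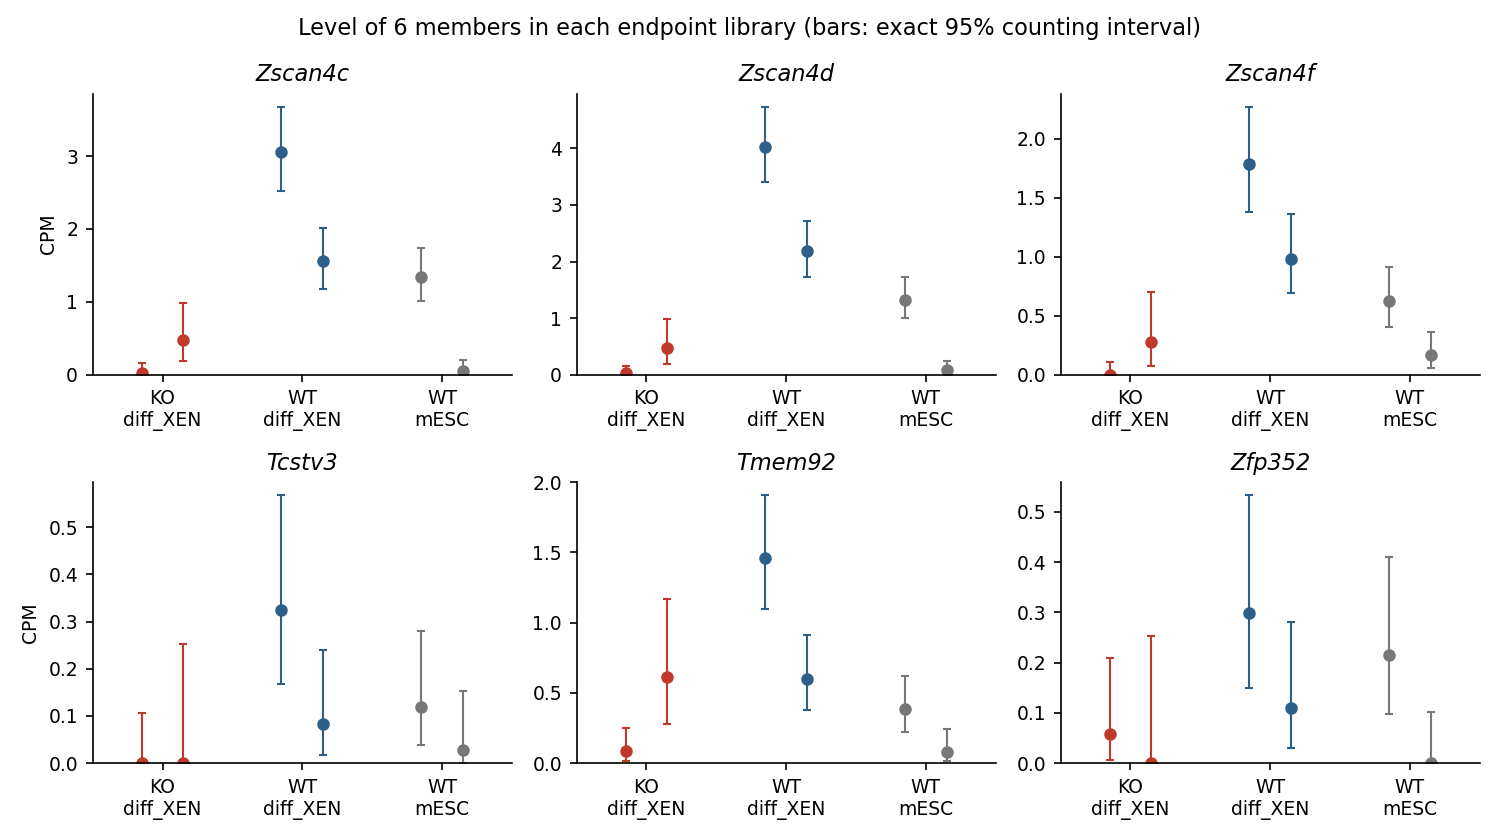
CPM with exact 95% counting intervals for the members in KO diff_XEN (left clone 5-3, right clone C4), WT diff_XEN (A, then B) and WT mESC (passage 33, then passage 42) libraries. The KO libraries lie below the WT diff_XEN libraries for the 3 Zscan4 copies, and the passage 33 mESC library lies above that of passage 42.

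WT diff_XEN cells were set against WT mESCs, whose 2 libraries lay far apart. Summed Zscan4 was 8.88 and 4.73 CPM in WT diff_XEN A and B, against 3.29 CPM in mESCs of passage 33 and 0.302 CPM in mESCs of passage 42. Both diff_XEN libraries were above both mESC libraries for Zscan4c, Zscan4d and Zscan4f. None of the 4 tested members was called by edgeR or DESeq2, with 0 at an unadjusted p below 0.05, where 52.5% of 17936 genes were called, and 2 were called without the passage 33 library. The estimates were 1.70 ± 1.25 for Zscan4c (adjusted p = 0.280), 2.13 ± 1.18 for Zscan4d (adjusted p = 0.165), 1.79 ± 1.02 for Zscan4f (adjusted p = 0.174) and 2.11 ± 1.01 for Tmem92 (adjusted p = 0.115). These groups came from different earlier series, so cell state and source cannot be told apart.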

How the data were processed

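The authors deposited raw read counts for each gene, made with STAR 2.5.0c and featureCounts 1.4.5-p1 on mm10, per the submitters' processing notes. The annotation release, the strand setting and the treatment of reads with several matches are not given in the sources used here, although the labels call the libraries reverse-stranded. Of 24 samples in 12 groups, 22 libraries of 11 groups were used. KO mESC was not analysed here, and 3 columns of the series table were used in no step. Groups were taken from the sample labels, and the diff_XEN counts from column names.

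Counts were tested with edgeR 4.0.16 (R 4.3.3), scaled by TMM, after the default filter on expression, with robust quasi-likelihood fits and Benjamini-Hochberg adjustment over all genes tested. The 16 course libraries formed 1 fit, KO and WT diff_XEN a fit of 4 libraries, and all 6 endpoint libraries the fit in which WT diff_XEN was set against WT mESC. The standard error was derived from the F statistic. CPM are relative to the TMM-scaled library size. Intervals are exact 95% intervals and, like the floor of 3 counts, cover counting error only. Alternatives were DESeq2 1.42.0 (its Wald test, and its size factors in edgeR), no filter, a 2-fold threshold, the replicate block, the compared groups alone and leaving out each library. With 1 library left in a group, its spread was taken from the other groups. The scripts were tested on simulated counts.

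The members and all lists were chosen with earlier results of these data known. By rule, all members were named, together with up to 6 called genes of each list with the largest change and the 10 most similar genes. Of these the text gives a part, and 1 is not reported here. Comparisons numbered 10 planned and 6 added after the counts had been seen. Sequences were matched by symbol to RefSeq promoters, for 4 of 7 members, and aligned with Biopython 1.88.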

Additional observations from a re-analysis of the deposited data

Results flagged for a closer look

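For each of the 6 tested genes, KO and WT differed in how levels changed from day 1 to day 4, by a test of the difference itself, with the lower change in KO. The log2 difference was -3.10 for Tcstv3, -2.92 for Zfp352, -2.26 for Tmem92, -1.90 for Zscan4c, -1.40 for Zscan4d and -1.28 for Zscan4f. The change from day 1 to day 2 differed in the same way for Tcstv3 (-3.54) and Zscan4c (-1.89). Of all genes 6.42% were called for the day 1 to 4 change and 0.119% for the day 1 to 2 change. Apart from Zscan4c in the day 1 to 4 change, these calls were lost when some single libraries were left out.

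For 5 genes every KO library was above every WT library at day 1 and every KO library was below every WT library in diff_XEN cells. The share of all genes with this order was not counted, and 13.6% of all genes were called at day 1 and 47.0% in diff_XEN cells. In diff_XEN cells Tcstv3 rested on 0 counts in KO against 15 counts in WT, and Zfp352 on 2 counts in KO against 15 counts in WT. The day 1 ratios of group means, KO over WT, were 7.68 for Tcstv3, 3.07 for Zscan4d, 2.75 for Zfp352, 2.74 for Zscan4c and 1.92 for Zscan4f. The difference between day 1 and diff_XEN was not tested, since the libraries come from different series and were not fitted together.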

How the results depend on the processing

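The numbers below are members called, of 6 tested unless stated. With no expression filter, where Tcstv1 was tested too, 2 were called between KO and WT at day 2 (3.78% of all genes). At day 3 it was 4 (7.03%), at day 4 it was 2 (7.32%) and for the mean of the days 1 (13.3%). In the same setting 1 was called between day 4 and day 1 in KO (41.3%) and 6 for the day 1 to 2 change (5.54%). DESeq2 also called 6 for that change (4.66%). At day 3 the fit of the compared groups alone and the 2-fold threshold each called 0. With the replicate number as a block, 4 were called at day 1 (without Zfp352, adjusted p = 0.0564, and Tmem92, adjusted p = 0.0612), 2 at day 3 (Zscan4d being added, adjusted p = 0.0415), 0 at day 4 (Zfp352, adjusted p = 0.0505), 5 in the day 1 to 4 change (without Tmem92, adjusted p = 0.0637) and 2 in the day 1 to 2 change (Zscan4d, adjusted p = 0.0361, in place of Tcstv3, adjusted p = 0.0545). With this block 10.6% of all genes were called at day 1, 4.33% at day 3 and 6.28% at day 4. The shares were 4.72% for the day 1 to 4 change and 0.0622% for the day 1 to 2 change. The samples share only a number, since same-numbered KO and WT libraries had deviations correlated at -0.0359, 0.0755, -0.0794 and 0.391 for days 1 to 4, and 7 of 28 pairs of groups were above 0.1. No paired analysis was possible for diff_XEN because its columns carry no replicate numbers.

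Leaving out each library gave 0 to 4 calls at day 1, 0 at day 3, 0 at day 4, 0 to 1 for the mean of the days, 1 to 5 for the day 1 to 4 change, 0 to 5 for the day 1 to 2 change, 3 to 6 between day 4 and day 2 in WT, 0 to 3 of 4 in diff_XEN (6 were tested without clone 5-3) and 0 to 2 for diff_XEN against mESC.

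Uncalled log2 changes near 0 turned round. Without single libraries, KO over WT ran from -0.34 to 0.11 for Zscan4d at day 2 and from -1.14 to 0.33 for Tmem92 at day 3, and the mean of the days from -0.12 to 0.03 for Zscan4c, -0.15 to 0.02 for Zscan4f and -0.32 to 0.05 for Tmem92. Day 4 over day 1 in KO ran from -0.31 to 0.37 for Zfp352 and -0.64 to 0.32 for Tcstv3. The day 2 to 4 difference ran from -0.23 to 0.21 for Zscan4c, -0.25 to 0.23 for Zscan4f, -0.43 to 0.33 for Tmem92 and -0.04 to 0.80 for Tcstv3. With DESeq2 size factors or DESeq2 it was 0.03 for Zscan4c and Tmem92, and with the compared groups alone 0.02 and 0.03. Over all settings, 804 values kept direction and side of the threshold, 90 were weaker, 30 stronger and 30 reversed. The cause of these changes was not tested.

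Among all genes, the number called at day 1 was 2406, and 657, 63, 4225 and 45 without WT replicate 1, WT replicate 2, KO replicate 1 and KO replicate 2. The compared groups alone gave 1440 calls at day 2, against 288, and 35 at day 3, against 854. The precision is limited for Tcstv1, with 0 to 8 counts, and for summed Zscan4 in diff_XEN KO, with 18 counts in clone C4 and 2 in clone 5-3, the deeper library.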

Other observations

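The summed Usp17l genes, which encode deubiquitinating enzymes of the same embryonic programme, overlapped between KO and WT at day 1. Among them Usp17lc was higher in both KO libraries, with 4.41 and 6.31 CPM in KO against 2.52 and 3.91 CPM in WT. The 5 genes summed to 27.1 and 32.5 CPM in KO against 19.8 and 38.8 CPM in WT at day 1, and to 61.5 and 84.7 CPM in KO against 167 and 244 CPM in WT at day 2. They held 74.0 and 69.4 CPM in KO against 178 and 167 CPM in WT at day 3, and 38.2 and 40.6 CPM in KO against 50.6 and 58.3 CPM in WT at day 4.

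The number of Usp17l counts per count of the 3 Zscan4 copies, a ratio within each library, was lower in both KO libraries than in both WT libraries at all 4 days. It was 0.258 and 0.275 in KO against 0.606 and 0.728 in WT at day 1, 0.254 and 0.260 in KO against 0.556 and 0.633 in WT at day 2, 0.345 and 0.310 in KO against 0.438 and 0.509 in WT at day 3, and 0.335 and 0.323 in KO against 0.410 and 0.398 in WT at day 4. In diff_XEN cells both KO libraries were instead above both WT libraries, with 1.72 and 12.0 in KO clones C4 and 5-3, from 18 and 2 Zscan4 counts, against 1.20 and 0.821 in WT A and B. The pattern was noticed in these data and was not tested. Both families consist of near-identical copies, so reads may be shared within each.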
